A study of Mus musculus with 30 samples.

Results

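Liver gene expression was compared between PPARα-null (Null) and wild-type (WT) mice that had all received PFOS at 10 mg/kg. PFOS, perfluorooctane sulfonate, is a persistent fluorinated surfactant that activates PPARα. The comparison took the 5 arrays labelled Null 10 mg/kg and the 5 arrays labelled WT 10 mg/kg, which are 10 of the 30 arrays of the study, with 1 mouse on each array. No vehicle array was used, so a genotype difference that was there without PFOS and one that arose during dosing cannot be told apart in this comparison.

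The Null mice were of the strain 129S4/SvJae-Pparatm1Gonz/J, in which Ppara is disrupted by gene targeting in the whole animal, and the WT mice were 129S1/SvlmJ. Because the groups were different substrains, genotype and substrain cannot be told apart. All 10 animals were males of 6 to 9 months that were dosed by gavage for 7 days with the potassium salt of PFOS in 0.5% Tween 20, and RNA was taken from the left lobe of the liver. Mice were housed 5 per cage, and how cages related to groups is not given in the sources used here. Expression was measured on Affymetrix oligonucleotide arrays of the mouse genome, and all values below are log2 values from the RMA procedure, so that a difference of 1 is a 2-fold change.

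PPARα is a nuclear receptor that binds fatty acids and synthetic peroxisome proliferators. In the hepatocyte it pairs with the retinoid X receptor on repeats of a short DNA motif and switches on genes for fatty acid uptake, peroxisomal and mitochondrial β-oxidation, microsomal ω-hydroxylation and lipid droplet proteins. In rodents its activation is known for peroxisome proliferation, liver enlargement and hepatocyte division.

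The targeted gene was lower in Null liver on each of its 3 probe sets. On the probe set with the smallest p, Ppara was at 8.90, 9.28, 9.35, 8.96 and 8.43 in Null replicates 1 to 5 and at 10.53, 10.29, 10.96, 10.06 and 10.16 in WT replicates 1 to 5. The groups did not overlap, and the difference was -1.42 ± 0.20 (standard error, n = 5 per group; limma, Benjamini-Hochberg adjusted p = 0.0017). Signal remained in Null arrays, and where these probes lie relative to the disrupted bases is not given in the sources used here, so this signal alone does not check the labels. On 117 probe sets that separated the genotypes in the other mice of the study dosed at 3 mg/kg, with WT set at 0 and Null at 1, the Null arrays lay between 0.71 and 1.05 and the WT arrays between -0.25 and -0.02, so each array lay on the side of its label.

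Null replicate 1 stood apart from the other Null arrays. Its correlation with the 4 other Null arrays was 0.957 to 0.972, below its correlation of 0.981 with WT replicate 2, and limma gave it an array weight of 0.286 where the other 9 arrays had 0.725 to 2.58. The deviations of these 2 arrays from their group means correlated at 0.718, against at most 0.416 in the 24 other pairs of a Null and a WT array. The 3′ minus 5′ difference of the Actb control probes, a measure of RNA degradation, was 0.36 in Null replicate 1 and 0.38 to 0.52 in the other arrays. Labeling and hybridization of all arrays were done together as 1 block, and no further batch is given in the sources used here. The main counts are therefore given with all 10 arrays and again without Null replicate 1, and those of some lists with all 10 arrays only.

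Of the 11711 genes tested, 1033 (8.82%) differed between Null and WT at an adjusted p under 0.05 in limma, the threshold behind every call below, with 429 (3.66%) higher and 604 (5.16%) lower in Null. A gene was tested when 5 or more of the 10 arrays were above the median signal. The median difference over all genes was 0.02. Among the called genes, 888 (7.58% of genes tested) had no overlap between the groups, out of 1277 (10.9%) without overlap in all. Large differences lay mostly on the lower side, where 263 genes (2.25%) were at least 1.5-fold lower and 112 (0.956%) at least 2-fold lower, against 120 (1.02%) and 29 (0.248%) on the higher side. Without Null replicate 1 the calls rose to 2073 (17.7%), with 1019 (8.7%) higher and 1054 (9%) lower, and 1027 of the 1033 genes remained called on the same probe set with the same sign.

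Vnn1 and Cyp4a14 had the largest decreases. Vnn1, which encodes a pantetheinase that frees pantothenate for coenzyme A, was at 4.04, 5.97, 4.02, 4.31 and 4.82 in the Null arrays and at 11.44, 10.97, 11.57, 9.98 and 10.55 in the WT arrays. Each WT array lay far above each Null array, and the difference was -6.27 ± 0.39 (adjusted p = 4.9e-06). Cyp4a14, a fatty acid ω-hydroxylase, was at 10.53, 9.45, 7.40, 7.45 and 9.24 in Null and between 13.24 and 13.38 in WT, so the WT arrays were tightly grouped while the Null arrays were spread out, with Null replicate 1 at the top. Its difference was -4.50 ± 0.51 (adjusted p = 0.00034) and was -4.93 without Null replicate 1.

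Other genes from the 10 largest decreases follow, a ranking that took only called genes without overlap between groups. Cyp4a31, a second ω-hydroxylase, fell by 4.39 on the log2 scale, and Cox6b2, an isoform of a cytochrome c oxidase subunit known from testis, fell by 4.13. Mogat1, a monoacylglycerol acyltransferase, fell by 3.59, Chrna2, a nicotinic receptor subunit, fell by 3.30, and Rab30, a small GTPase of the Golgi, fell by 3.26. Fitm1, a protein of lipid droplet formation, fell by 3.00, and Retsat, which saturates retinol, fell by 2.99. In Null, all 5 arrays of Mogat1 and Chrna2 and 4 of 5 arrays of Vnn1, Cox6b2 and Rab30 lay below the median signal used to filter genes, so these genes were tested largely or wholly through the WT arrays and their differences are as measured, with the Null level possibly at background. The largest adjusted p among the genes named here was that of Cyp4a14, and each of them kept its call without Null replicate 1.

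On the higher side the low group was WT, where 4 of 5 arrays of Sult1e1 and all 5 of Aar2 lay below the median signal. Sult1e1, which sulfates and inactivates oestrogens, led the genes that were higher in Null. It was at 8.29, 10.46, 9.27, 10.43 and 7.80 in Null and at 4.71, 5.12, 4.70, 6.73 and 5.60 in WT, with a difference of 3.88 ± 0.55 (adjusted p = 0.0018). Every Null array was above every WT array, which the choice of these genes required. Hsd3b5, whose groups overlapped, was left out of this ranking for that reason and is given below. Lrtm1, a leucine-rich repeat membrane protein, was higher by 2.42, Serpinb1a, an inhibitor of neutrophil proteases, by 2.26, and Cyp2d12, a member of a P450 family of drug metabolism, by 1.91. Blnk, an adaptor of B-cell receptor signalling, was higher by 1.82, Hsd3b2, a steroid dehydrogenase, by 1.69 and Pcp4l1, a small calmodulin-binding protein family member, by 1.48. The plot of the genes with the largest differences shows these values array by array.

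**Figure D1:**
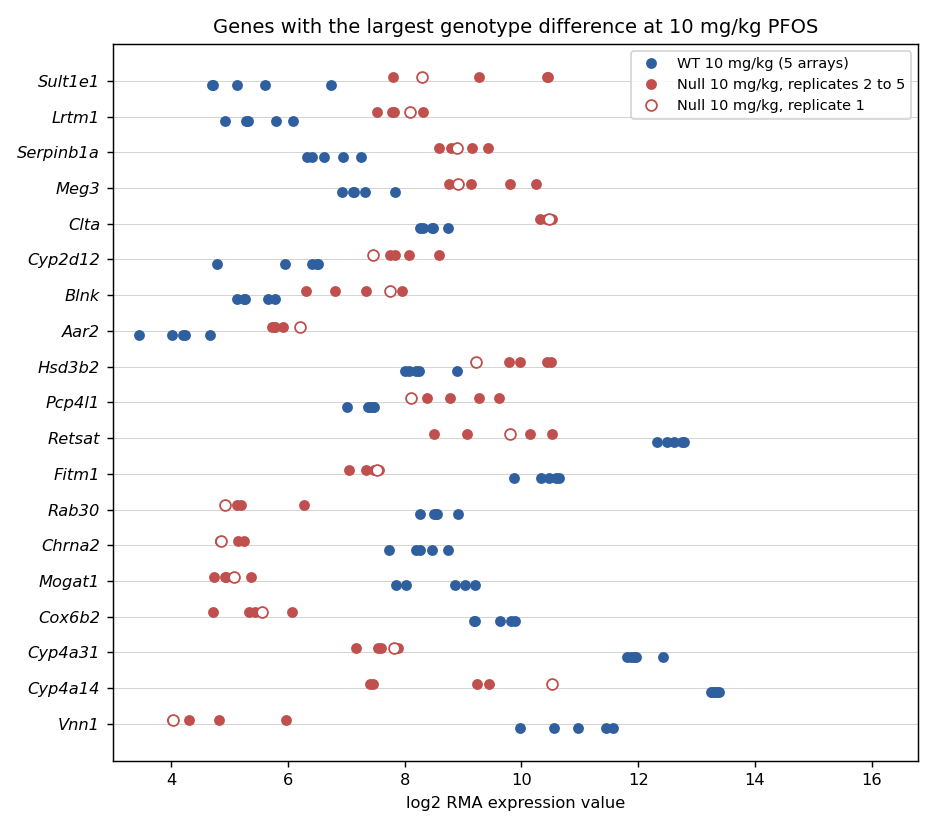
Log2 RMA values (horizontal axis) of the genes named here from the 10 largest increases and the 10 largest decreases in Null, among called genes without overlap. Each point is 1 mouse, with WT in blue, Null in red and Null replicate 1 as an open circle. No red point of a gene crosses its blue points, which the choice of genes required, and Vnn1 shows the widest gap.

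For some of the genes that were higher in Null, other probe sets gave other values. The called probe set of Clta, the clathrin light chain A, was at 10.31 to 10.52 in Null and 8.27 to 8.75 in WT, a difference of 1.98 ± 0.09 (adjusted p = 6.6e-07), but a second probe set with a higher level differed by -0.11 (adjusted p = 0.47) and the other one by 0.41 (adjusted p = 0.064). Aar2, a factor of spliceosome assembly, showed the same split, with 1.77 ± 0.19 (adjusted p = 0.00021) on one probe set and 0.14 (adjusted p = 0.51) on the other. Meg3, an imprinted noncoding RNA expressed from the maternal chromosome, had 8 probe sets, of which 5 were called higher with differences from 0.64 to 2.15 and none lower. Rian and Mirg, noncoding RNAs of the same imprinted cluster that were picked after their values were seen, were higher by 1.36 (adjusted p = 0.020) and 1.15 (adjusted p = 0.0057), with all 5 WT arrays of Rian below the median signal. At 3 mg/kg the called probe sets of Clta and Meg3 differed by 2.24 and 1.94, in the same direction.

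Genes known as direct or typical PPARα targets were almost all lower in Null. Of 69 genes listed, 57 were tested, 47 were lower, 1 was higher and 9 did not pass, with a median difference of -1.05 against 0.02 over all genes and 84.2% called against 8.82%. The mean over these genes was between 9.67 and 10.13 in the Null arrays and between 11.07 and 11.29 in the WT arrays, and Null replicate 1, at 10.02, lay within the range of the other Null arrays. Without Null replicate 1 the counts were 49 lower and 2 higher with a median of -1.09, and leaving out any 1 array kept between 39 and 49 lower. The 1 gene that was higher was Apoa5, an apolipoprotein that lowers plasma triglycerides, at 13.18 to 13.63 in Null and 12.95 to 13.08 in WT with a difference of 0.36 (adjusted p = 0.035). Cpt1a, the carnitine palmitoyltransferase at the entry of mitochondrial β-oxidation, was among the genes that did not pass, with a difference of -0.08 and a 95% confidence interval from -0.32 to 0.16. Acaa1b, a peroxisomal thiolase, did not pass either (-0.96, adjusted p = 0.10).

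**Figure D2:**
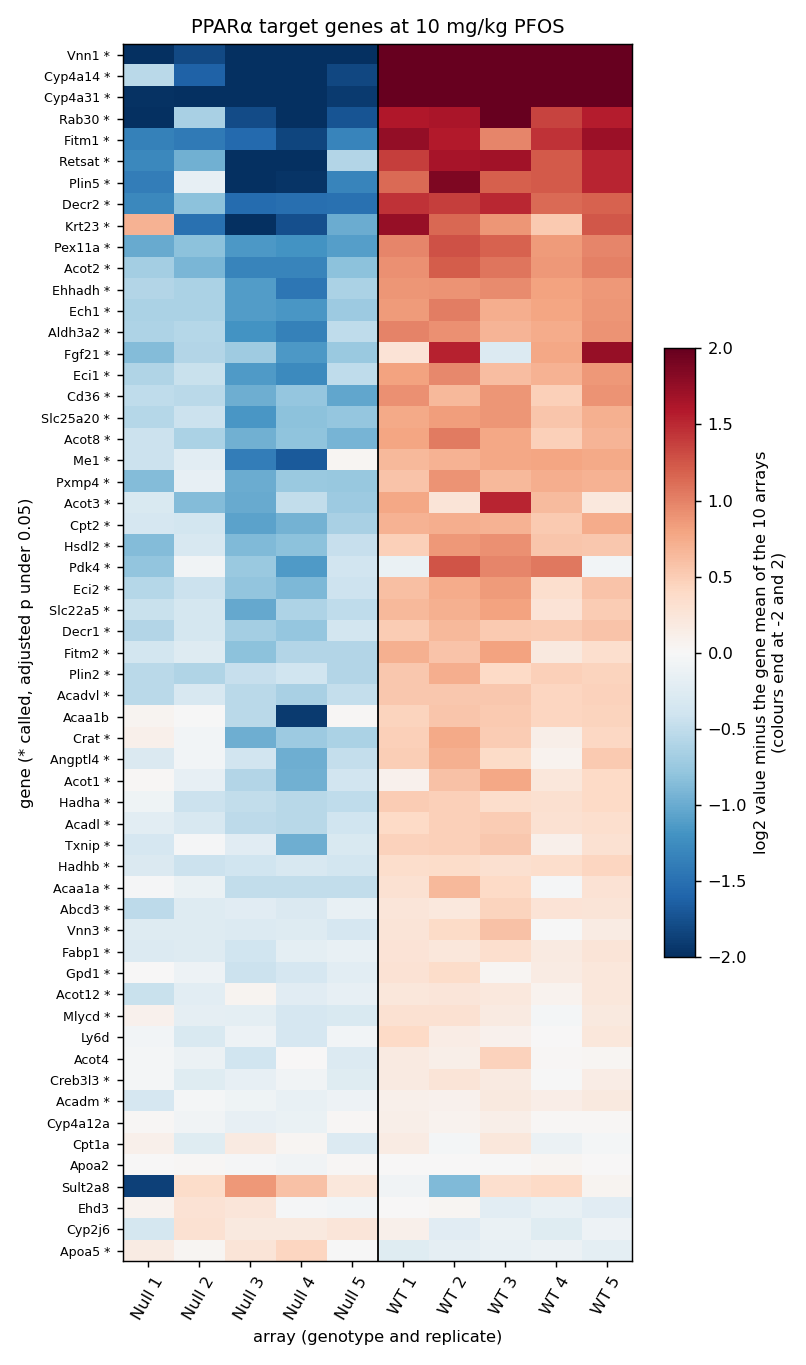
Log2 values of the 57 PPARα target genes tested (rows), each minus its mean over the 10 arrays, in the Null and WT arrays (columns), with blue below and red above the mean and an asterisk at called genes. Called genes lower in Null are mostly blue on the left and red on the right. Krt23 departs in Null replicate 1, at 7.33 against 4.64 to 5.64 in the other Null arrays, which lay below the median signal.

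Promoter sequences of 3 target genes that were lower in Null are shown because their windows hold the 6-base motif of nuclear receptors such as PPARα. They are from RefSeq (GRCm38.p6) and run 5′ to 3′ on the strand of the gene, from 250 bases before to 50 bases after the transcription start. Fabp1 is at chr6:71199629-71199928 on the plus strand, Plin2 at chr4:86670010-86670309 on the minus strand and Cd36 at chr5:17835847-17836146 on the minus strand. Capitals mark AGGTCA on either strand, and in Fabp1 also a direct repeat that matches AGGNCANAGGNCA on either strand.
Fabp1: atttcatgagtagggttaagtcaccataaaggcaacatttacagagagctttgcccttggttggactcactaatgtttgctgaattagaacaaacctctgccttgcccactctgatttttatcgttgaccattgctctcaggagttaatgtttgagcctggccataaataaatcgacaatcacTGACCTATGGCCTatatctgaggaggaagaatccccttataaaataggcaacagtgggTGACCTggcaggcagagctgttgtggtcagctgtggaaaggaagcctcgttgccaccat
Plin2: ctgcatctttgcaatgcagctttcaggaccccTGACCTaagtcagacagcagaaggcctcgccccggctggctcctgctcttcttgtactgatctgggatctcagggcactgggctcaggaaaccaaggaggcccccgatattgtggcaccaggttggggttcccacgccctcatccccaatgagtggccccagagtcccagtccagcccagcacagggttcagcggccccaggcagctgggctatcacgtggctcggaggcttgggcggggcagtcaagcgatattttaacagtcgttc
Cd36: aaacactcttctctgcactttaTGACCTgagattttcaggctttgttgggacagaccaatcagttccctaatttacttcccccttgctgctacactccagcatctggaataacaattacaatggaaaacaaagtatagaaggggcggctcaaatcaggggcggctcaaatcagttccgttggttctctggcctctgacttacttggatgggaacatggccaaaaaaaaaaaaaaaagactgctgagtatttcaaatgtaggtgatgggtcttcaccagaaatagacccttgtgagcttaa
The repeat in Fabp1 begins at position -67 from the start. Of the 47 targets that were lower, 39 had a promoter window, and 9 of them (23.1%) held AGGTCA, against 15.9% of the 9463 genes tested that had a window. AGGNCANAGGNCA was found in 1 of the 39 (2.56%), Fabp1, and in 0.38% of genes tested. The strict repeat, AGGTCA repeated after 1 base, was found in none of the 39 and in 4 of the 9463 (0.0423%). AGGTCA overlaps both repeats where they match it. A match describes the letters of these short windows and is not a bound site.

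The 3 genes were lower in Null by unequal amounts. Fabp1, the cytosolic fatty acid binding protein of hepatocytes, was at 12.63 to 12.87 in Null and 13.20 to 13.36 in WT, a difference of -0.51 ± 0.07 (adjusted p = 0.0012). Plin2, a coat protein of lipid droplets, fell by 1.03 (adjusted p = 2.3e-05). Cd36, a fatty acid translocase of the plasma membrane, was at 6.61, 6.57, 6.14, 6.34 and 6.08 in Null and at 8.03, 7.77, 8.0, 7.59 and 8.01 in WT, and fell by 1.54 (adjusted p = 3.4e-05), with all 3 of its probe sets called lower.

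Gene lists can share members, and many of the called genes of fat metabolism below are also in the PPARα target list. Acadvl, Cpt2, Ehhadh, Acot2 and Plin5 are examples, and such decreases are counted again in these lists, not added to those above. Genes of mitochondrial β-oxidation that were called were nearly all lower in Null. Of 27 genes tested, 12 were lower and 1 higher (48.1% called against 8.82% over all genes, median -0.29). The 12 included Acadvl, the very long chain acyl-CoA dehydrogenase (-1.01 ± 0.07, adjusted p = 1.7e-05), and Hadha and Hadhb, both subunits of the trifunctional protein (-0.82, adjusted p = 0.000395, and -0.73, adjusted p = 4.2e-05). The auxiliary enzymes Eci1 (-1.58) and Decr1 (-1.1), which handle unsaturated fatty acids, were lower too, as was Etfdh (-0.98), which passes the electrons on to ubiquinone. Acadl fell by 0.80, while Acadm, the medium chain dehydrogenase, fell by 0.28 and lost its call in 12 of 25 alternative analyses. The gene that was higher was Acsm1, a medium chain acyl-CoA synthetase (0.26, adjusted p = 0.044), which lost its call in 14 of 25 alternatives. Without Null replicate 1 the list had 13 lower and 2 higher.

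The genes that bring fatty acids to the matrix as carnitine esters were called lower more often than not. Of 9 tested, 6 were lower (66.7% called, median -0.60). Their differences were -1.5 for Slc25a20, the carnitine carrier of the inner membrane (adjusted p = 3.6e-05), -1.35 for Cpt2, the inner palmitoyltransferase (adjusted p = 0.00017), and -1.18 for Slc22a5, the plasma membrane carnitine transporter (adjusted p = 0.00041). Of 3 ketogenesis genes tested, Acat1 was lower (33.3% called).

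Peroxisomal enzymes were lower in Null as well. Of 34 genes tested for peroxisomal β-oxidation and other matrix enzymes, 14 were lower and 1 higher (44.1% called, median -0.28, and 16 lower and 2 higher without Null replicate 1). Ehhadh, the bifunctional enzyme, was at 12.19, 12.14, 11.66, 11.33 and 12.14 in Null and at 13.58 to 13.71 in WT, and fell by 1.76 (adjusted p = 4.6e-05). Others that were lower were Decr2 (-2.66), Ech1 (-1.71), Acot8 (-1.5), Ephx2 (-0.89), Hsd17b4 (-0.74) and Acaa1a (-0.65). Agxt, a peroxisomal aminotransferase that clears glyoxylate and takes no part in β-oxidation, was the 1 higher gene (0.42, adjusted p = 0.013). Among 20 peroxins and membrane proteins 5 were lower and 1 higher (30% called, median -0.12), led by Pex11a, which acts in peroxisome division (-2.10 ± 0.10, adjusted p = 6.6e-07), and Pxmp4 (-1.41).

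Called genes that handle acyl-CoA and stored fat were mostly lower too, and many of them are again members of the PPARα target list. Of 12 acyl-CoA thioesterases 6 were lower and none higher (50% called, median -0.42), or 8 lower and 1 higher without Null replicate 1. Acot2 was at -2.03, Acot3 at -1.36 and Acot1 at -0.83, although Acot1 lost its call in 6 of 25 alternatives. Of 14 genes of pantetheine and coenzyme A metabolism 5 were lower (35.7% called). Of 22 lipid droplet proteins and lipases 9 were lower and none higher (40.9% called, median -0.46). They included Plin5 (-2.78, adjusted p = 0.00033), the steroid dehydrogenase family member Hsd17b11 (-2.41, adjusted p = 1.9e-06), the monoglyceride lipase Mgll (-1.30), Fitm2 (-1.05), the triglyceride lipase Pnpla2 (-0.76) and its inhibitor G0s2 (-1.10, adjusted p = 0.045), which lost its call in 14 of 25 alternatives. Of 16 uptake and binding genes 4 were lower and none higher (25% called), or 5 lower and 1 higher without Null replicate 1. The family of Cyp4 and related ω-oxidation genes was split, with 3 of 10 lower and 2 higher (50% called), and Cyp4f14, an enzyme that ω-hydroxylates leukotrienes, was higher by 0.94 (adjusted p = 0.0044).

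**Figure D3:**
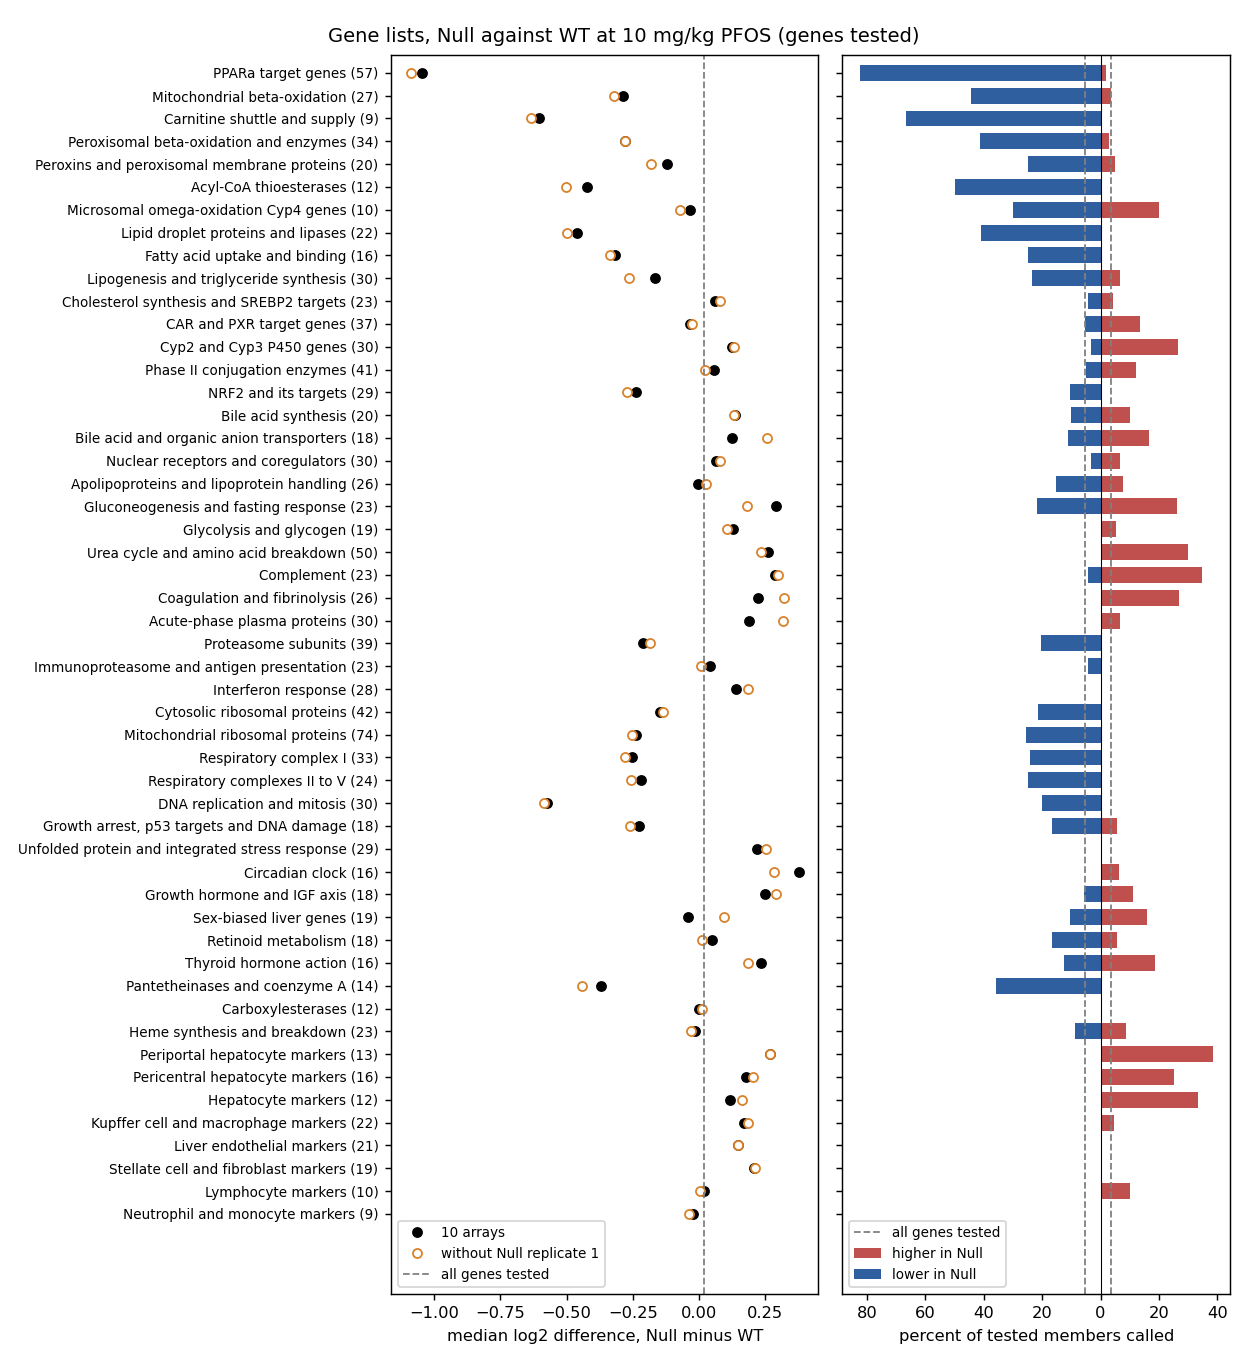
Left, the median log2 difference (Null minus WT) of each gene list with at least 9 genes tested, with all 10 arrays (filled) and without Null replicate 1 (open). Right, the percent of its tested genes called higher (red, to the right) or lower (blue, to the left) in Null. Dashed lines mark all genes tested, and the PPARα targets lie farthest from them at a median of -1.05. Lists can share members.

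Lipogenesis was lower at a few enzymes. Of 30 genes tested, 7 were lower, among them Mogat1, which was tested through WT arrays alone, and 2 higher (30% called, median -0.16), and they included Me1, the malic enzyme that supplies NADPH (-1.47, adjusted p = 0.011), Gpam, the first acyltransferase of triglyceride synthesis (-0.71), and Fasn, the fatty acid synthase (-0.72, adjusted p = 0.044, called in 12 of 25 alternatives). Pklr, the liver pyruvate kinase, and Dgat2, which adds the last acyl chain, were higher by 0.67 and 0.31. Their other probe sets had the same direction and were not called. Among 26 apolipoproteins and lipoprotein genes 4 were lower and 2 higher (23.1% called), with a median of -0.0036 that turned sign under other scalings of the arrays. Pltp, the phospholipid transfer protein (-1.95, adjusted p = 3.4e-05), and Lipg, endothelial lipase (-1.9, adjusted p = 2.9e-05), were lower, Lipg through WT arrays alone, while Apoa4 was higher by 0.77. Of 23 genes of cholesterol synthesis 1 was lower, Pmvk (-0.44, adjusted p = 0.048), and 1 higher, Stard4 (0.46, adjusted p = 0.041), a share of 8.7% that was near the 8.82% over all genes. Their calls were lost in 15 and 11 of 25 alternatives, and the other probe sets of Stard4 were not called. At 3 mg/kg, 9 of these 23 were higher in Null, with none of them called to differ between doses.

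Hepatokines and fasting genes went both ways. Fgf21, a hormone of the fasting liver, was at 5.21 to 5.78 in Null and 6.09 to 8.10 in WT and fell by 1.62 (adjusted p = 0.013). Angptl4, an inhibitor of lipoprotein lipase (-0.88), and Pdk4, which blocks pyruvate dehydrogenase (-1.24, adjusted p = 0.0275), were lower. Fgf21, Angptl4 and Pdk4 are also in the PPARα target list. In the same list of 23 gluconeogenesis and fasting genes, of which 47.8% were called, 6 were higher, among them Pck1, the rate-limiting step of gluconeogenesis (1.30, adjusted p = 0.013), and its coactivator Ppargc1a (0.89, adjusted p = 0.022). The groups overlapped for Pck1 and Ppargc1a, and 4 of 5 WT arrays of Ppargc1a lay below the median signal. The other probe sets of Ppargc1a were higher by 0.61 and 0.52 and were not called.

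Called genes of amino acid breakdown were all higher in Null, and those of secreted plasma proteins nearly all. Of 50 genes of the urea cycle and amino acid breakdown 15 were higher and none lower (30% called, median 0.26), and 20 were higher without Null replicate 1. Got1, the cytosolic aspartate aminotransferase, was at 13.01, 12.66, 12.52, 12.72 and 12.52 in Null and at 11.38, 10.37, 11.80, 11.29 and 11.66 in WT, a difference of 1.39 ± 0.23 (adjusted p = 0.0045). Prodh, proline dehydrogenase, was higher by 0.76, Oat, ornithine aminotransferase, by 0.65, Hal, histidine ammonia lyase, by 0.53 and Cps1, the entry enzyme of the urea cycle, by 0.27.

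Of 23 complement genes 8 were higher and 1 lower (39.1% called, median 0.29), and of 26 coagulation genes 7 were higher and none lower (26.9% called, median 0.22). C8b, a chain of the membrane attack complex, was higher by 0.74 (adjusted p = 0.0014) and C1s1, a protease of the classical pathway, by 0.75 (adjusted p = 0.0097). Mbl1, a mannose-binding lectin, was lower (-0.48, adjusted p = 0.041) and lost its call in 12 of 25 alternatives. F11, coagulation factor XI, was at 9.38, 9.58, 9.93, 10.08 and 9.70 in Null and at 8.82, 8.65, 8.62, 8.96 and 8.60 in WT, a difference of 1.00 ± 0.13 (adjusted p = 0.0010), and F7, factor VII, was higher by 0.64 (adjusted p = 0.0019). Leaving out 1 array at a time gave 3 to 10 complement genes higher and 3 to 11 coagulation genes, with the most without Null replicate 1 and the fewest without WT replicate 5 or, for complement, also without WT replicate 1. Of 30 acute-phase genes 2 were higher, and this share of 6.67% was below the 8.82% over all genes.

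Xenobiotic metabolism genes were called in both directions. Of 37 genes induced through CAR and PXR, the main xenobiotic receptors of liver, 5 were higher and 2 lower (18.9% called, median -0.03). Without Null replicate 1, 6 were higher and 5 lower. Cyp2b10, the standard marker of CAR, was at 13.04, 13.37, 12.02, 12.03 and 12.98 in Null and at 12.37, 12.97, 12.46, 12.44 and 12.76 in WT, with a difference of 0.09 and a 95% confidence interval from -0.47 to 0.65. Cyp3a11, the standard marker of PXR, differed by -0.04 with an interval from -0.17 to 0.10 at values from 13.73 to 13.88. Slco1a4, an organic anion transporter, was higher by 1.14 (adjusted p = 0.00275), and Cyp2c38, a P450 of the arachidonic acid epoxygenase subfamily, was lower (-1.32, adjusted p = 0.018).

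Among 30 Cyp2 and Cyp3 genes 8 were higher and 1 lower (30% called, median 0.12), and 11 were higher without Null replicate 1, with Cyp2c68 at 0.66, Cyp2u1 at 0.54 and Cyp2c54 at 0.47. Of 41 conjugation enzymes 5 were higher and 2 lower (17.1% called), or 10 higher and 4 lower without Null replicate 1. Ugp2, which makes UDP-glucose, was higher by 0.74. Of 29 NRF2 targets 3 were lower and none higher, and this share of 10.3% was near the 8.82% over all genes, with 7 lower without Null replicate 1. The 3 included Cbr3, a carbonyl reductase (-1.89, adjusted p = 0.047, called in 12 of 25 alternatives). Of 6 genes of the aryl hydrocarbon receptor and of 12 carboxylesterases none was called in limma or in the methods' t-test after adjustment, and 0 and 4 had an unadjusted p under 0.05. Without Null replicate 1, 1 of the first was higher and 1 of the second lower.

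Steroid and bile acid genes varied strongly between mice. Hsd3b5, a steroid reductase of male liver, was at 8.65, 9.93, 10.97, 11.21 and 11.34 in Null and at 6.04, 5.37, 6.53, 9.24 and 5.88 in WT. Null replicate 1 was the lowest Null array and lay below WT replicate 4, and the difference was 3.80 ± 0.71 (adjusted p = 0.0089), or 4.25 without Null replicate 1. Cyp17a1, the steroid 17-hydroxylase, was higher by 1.49 (adjusted p = 0.030) with overlap. Of 20 bile acid synthesis genes 2 were higher and 2 lower (20% called), and Cyp39a1, an oxysterol hydroxylase, was higher by 1.26 (adjusted p = 0.037) with overlap. Cyp7a1, the rate-limiting enzyme of bile acid synthesis, ranged from 8.29 to 10.25 in Null and from 7.40 to 9.50 in WT, a difference of 0.56 with an interval from -0.36 to 1.48 (adjusted p = 0.49). Cyp8b1, which sets the share of cholic acid, had -0.59 (adjusted p = 0.073). Of 18 bile acid and anion transporters 3 were higher and 2 lower (27.8% called), or 8 higher and 4 lower without Null replicate 1. The bile acid importer Slc10a1 was at 0.34 and the phospholipid exporter Abcb4 at -0.58.

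In the lists of other regulators 1 to 5 genes each were called. Of 30 nuclear receptors and coregulators, the calls were Ppara, Ppargc1a and Hnf4a, a receptor of hepatocyte identity (0.33, adjusted p = 0.034), a share of 10% that was near the 8.82% over all genes. The other probe sets of Hnf4a differed by 0.30, 0.26 and 0.02 and were not called. Of 16 thyroid hormone genes 3 were higher and 2 lower, and Serpina7, the thyroxine-binding globulin, fell by 1.94 (adjusted p = 0.0013). Of 18 growth hormone and IGF genes 2 were higher and 1 lower, of 19 sex-biased genes 3 were higher and 2 lower, of 18 retinoid genes 1 was higher and 3 lower, and of 23 heme genes 2 were higher and 2 lower. The shares called in these 5 lists were 31.2%, 16.7%, 26.3%, 22.2% and 17.4% in that order, against 8.82% over all genes, and each rests on 3 to 5 genes. Of 16 clock genes Bhlhe40 was higher, and of 19 glycolysis and glycogen genes Pklr was, shares of 6.25% and 5.26% that were below it. Of 28 interferon genes and of 29 genes of the unfolded protein response none was called in limma or in the methods' t-test after adjustment, with 5 and 9 at an unadjusted p under 0.05, and 2 of each were higher without Null replicate 1.

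Small decreases were seen in genes of the machinery of the proteasome, the ribosomes and the respiratory chain. Of 39 proteasome subunits 8 were lower and none higher (20.5% called, median -0.21). Psmb3, a β-type subunit of the core, was at 10.26 to 10.61 in Null and 10.79 to 11.09 in WT (-0.57 ± 0.09, adjusted p = 0.0040), and Psme1, a subunit of the PA28 activator, at -0.50 (adjusted p = 0.028). Psme1 was also the 1 gene called, lower, among 23 genes of the immunoproteasome and antigen presentation, a share of 4.35% that was below the 8.82% over all genes. Without Null replicate 1, 2 of these 23 were higher and 2 lower. Of 42 cytosolic ribosomal proteins 9 were lower and none higher (21.4% called, median -0.15), including Rpl27 (-0.57) and Rps19 (-0.39). The other probe sets of Rpl27 differed by -0.23 and -0.45 and were not called. Of 74 mitochondrial ribosomal proteins 19 were lower and none higher (25.7% called, median -0.24), including Mrps36 (-0.57) and Mrpl17 (-0.51). The other probe sets of Mrpl17 differed by 0.09 and -0.13 and were not called.

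Of 33 complex I genes 8 were lower and none higher (24.2% called, median -0.25). Of 24 genes of complexes II to V and cytochrome c 6 were lower and none higher (25% called, median -0.22). Ndufb3, an accessory subunit of complex I, was at 10.15, 10.37, 10.16, 10.14 and 10.45 in Null and at 10.84 to 11.04 in WT (-0.65 ± 0.08, adjusted p = 0.00086). Ndufa5 was at -0.45 (adjusted p = 0.022) with overlap, and Cycs, cytochrome c, was at -0.55 (adjusted p = 0.0017) with 3 of 3 probe sets called. Leaving out 1 array at a time gave 1 to 11 proteasome, 1 to 12 cytosolic ribosomal, 2 to 35 mitochondrial ribosomal and 4 to 17 complex I genes lower, with the most without Null replicate 1 and the fewest without WT replicate 5, a low count that Null replicate 3 gave too in all but the cytosolic ribosomal list and WT replicate 2 in the proteasome and mitochondrial ribosomal lists, and shifting the arrays to the same median gave 3, 3, 8 and 6. The medians of the 5 lists lay between -0.13 and -0.28 without Null replicate 1 or under the other scalings.

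Called genes of cell division were all lower in Null at this dose. Of 30 tested genes of DNA replication and mitosis 6 were lower and none higher (20% called, median -0.57), and leaving out 1 array at a time gave 3 to 12, with 12 without Null replicate 1. Cdc20, the activator of the anaphase-promoting complex, was at 6.05, 5.52, 5.65, 5.28 and 6.62 in Null and at 7.17, 7.38, 7.05, 7.34 and 6.68 in WT, a difference of -1.30 ± 0.23 (adjusted p = 0.0069) without overlap. Ube2c, its partner ubiquitin-conjugating enzyme, was at 6.09, 5.74, 6.03, 5.60 and 6.72 in Null and at 7.12, 7.58, 7.15, 7.46 and 6.63 in WT, and Null replicate 5 lay above WT replicate 5 (-1.15, adjusted p = 0.0097). Ccnd1, cyclin D1, fell by 0.87 (adjusted p = 0.0067), and the mitotic kinases Cdk1 (-1.1, adjusted p = 0.034) and Aurka (-0.63, adjusted p = 0.048) were lower. The other probe sets of Cdc20 differed by -1.42 (adjusted p = 0.037) and -0.09 (adjusted p = 0.48). Those of Ccnd1 differed by -0.65 (adjusted p = 0.020) and -0.65 (adjusted p = 0.061). Cenpa, the centromeric histone, fell by 0.58 (adjusted p = 0.044). For Aurka 4 of 5 Null arrays and 1 WT array lay below the median signal, and the calls were lost in 14 of 23 alternatives for Aurka and in 15 of 25 for Cenpa. Of 18 growth arrest and p53 genes 3 were lower and 1 higher (22.2% called), with Cdkn1a, the p21 inhibitor of cyclin-dependent kinases, at -0.94 (adjusted p = 0.021) and Gadd45b, a stress-induced growth arrest gene, at -1.0 (adjusted p = 0.012).

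The genotype difference was set against that of the 10 mice at 3 mg/kg, which share no array with them. At 3 mg/kg 1086 genes (9.27%) were called on the same probe sets, with 609 (5.2%) higher and 477 (4.07%) lower in Null. Of the 1033 genes called at 10 mg/kg, 457 were also called at 3 mg/kg in the same direction, which is 44.2% of the calls at 10 mg/kg and 42.1% of those at 3 mg/kg, and 4 were called in the opposite direction. The difference of the genotype differences (10 minus 3 mg/kg) was itself called in 45 genes (0.384%), 40 (0.342%) more negative and 5 (0.0427%) more positive at 10 mg/kg, with 1297 (11.1%) at an unadjusted p under 0.05, and in 62 (0.529%) without Null 10 mg/kg replicate 1. Leaving out any other 1 of the 20 arrays gave 23 to 47.

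**Figure D4:**
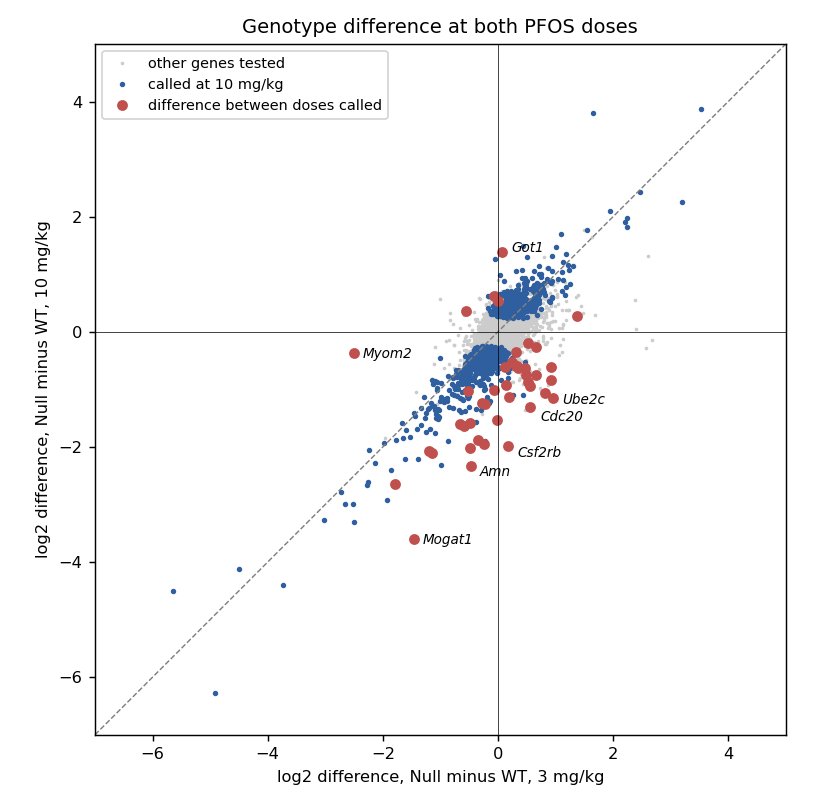
Log2 difference, Null minus WT, at 3 mg/kg (horizontal) against 10 mg/kg (vertical) for the 11711 genes tested, with genes called at 10 mg/kg in blue, the 43 (0.367%) whose difference between doses was called on the probe set shown in red, and the dashed line at equal differences. Mogat1, Csf2rb and Ube2c lie below the line and Myom2 and Got1 above it.

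Among the PPARα targets 37 of 57 were lower at 3 mg/kg (median -0.61 against -1.05 at 10 mg/kg), and 4 were called more negative at 10 mg/kg. At the higher dose Acot2 lay between 9.01 and 9.65 in Null and between 11.20 and 11.55 in WT. At the lower dose it lay between 8.77 and 9.33 in Null and between 9.14 and 9.75 in WT, so the genotype difference grew by -1.54 ± 0.19 (adjusted p = 0.00086). Cd36 at 3 mg/kg had 5.95 to 6.62 in Null and 5.57 to 6.75 in WT, with a difference of -0.02 (adjusted p = 0.96), and the change to 10 mg/kg was -1.52 ± 0.25 (adjusted p = 0.0056). Pex11a changed by -0.95 (adjusted p = 0.0024), and Plin2 by -0.51 (adjusted p = 0.046), a call that was kept in 3 of the 20 analyses that left out 1 array. Vnn1 and Cyp4a14 had -4.91 and -5.65 at 3 mg/kg and no call between doses (adjusted p = 0.36 and 0.65).

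Genes outside the PPARα list had changes between doses of like size. In WT, Mogat1 lay between 5.49 and 7.05 at 3 mg/kg and between 7.86 and 9.21 at 10 mg/kg, while Null stayed between 4.74 and 5.36 in both, a change of -2.13 ± 0.36 (adjusted p = 0.0077). Pltp changed by -1.70 ± 0.23 (adjusted p = 0.0014), with Null between 7.35 and 7.87 at both doses. Csf2rb, the shared β chain of cytokine receptors, and Amn, a membrane protein of vitamin B12 uptake, were picked after their values were seen. Csf2rb was at 9.79, 9.88, 9.70, 9.20 and 9.33 in WT at 10 mg/kg against 6.82 to 8.15 in the 15 other arrays, a change of -2.15 ± 0.31 (adjusted p = 0.0024), and Amn changed by -1.85 (adjusted p = 0.0024), with 4 of 5 Null arrays at 10 mg/kg below the median signal.

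Some cell division genes turned direction between doses. At 3 mg/kg the list of 30 had 4 genes higher in Null and none lower (median 0.29), and 6 were called more negative at 10 mg/kg. Ube2c at 3 mg/kg was at 6.24, 6.23, 6.23, 6.26 and 6.76 in Null and 5.44, 5.04, 5.63, 5.91 and 4.91 in WT, with no overlap, a difference of 0.96 (adjusted p = 0.0090) against -1.15 at 10 mg/kg. The change was -2.11 ± 0.30 (adjusted p = 0.0024). The mean of WT was 5.39 at the lower and 7.19 at the higher dose, with the Null means of 6.34 and 6.04 between them. Birc5, the mitotic protein survivin, picked after its values were seen, had 0.92 (adjusted p = 0.015) at 3 mg/kg and -0.83 (adjusted p = 0.072) at 10 mg/kg, a change of -1.76 (adjusted p = 0.013). Cdc20 changed by -1.86 (adjusted p = 0.0015), Ccnd1 by -1.40 (adjusted p = 0.035) and Aurka by -1.09 (adjusted p = 0.019), and the call of Ccnd1 was kept in 8 of 20 analyses that left out 1 array.

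**Figure D5:**
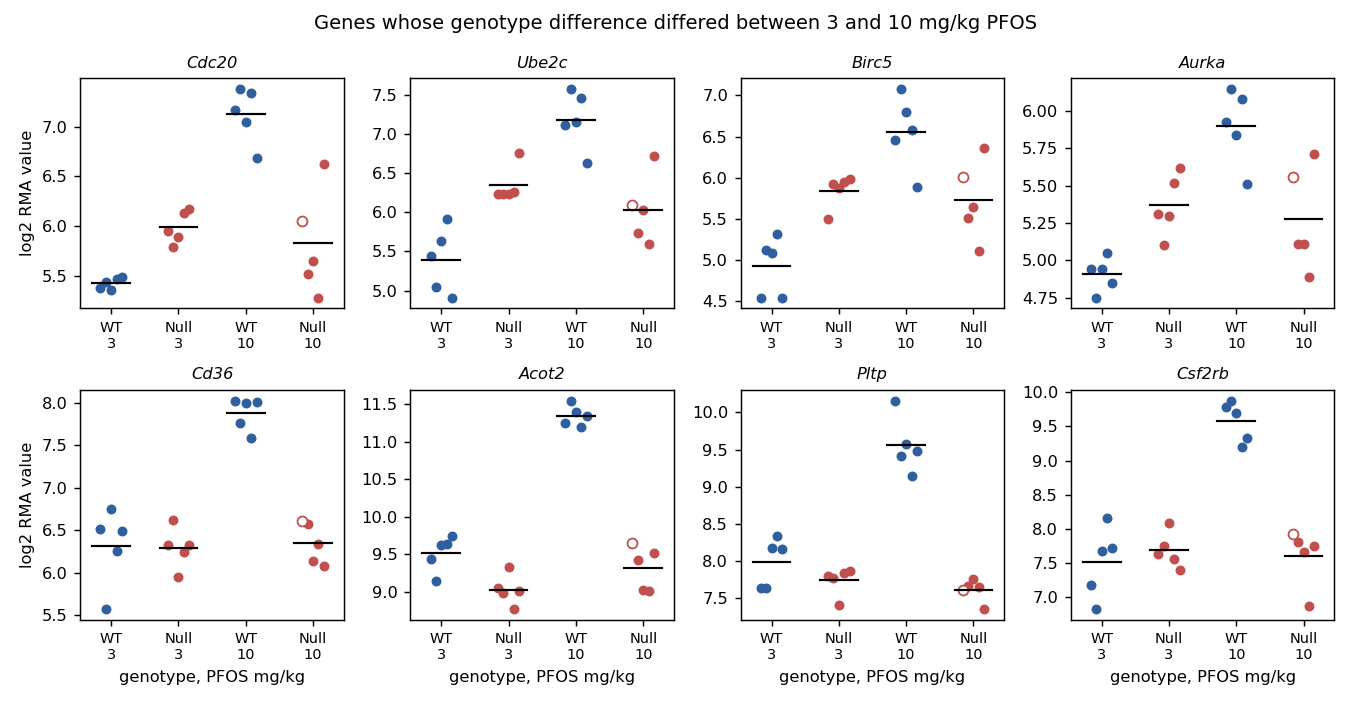
Log2 RMA values (vertical axes, which do not start at 0) of 8 genes whose genotype difference was called to differ between doses, in WT (blue) and Null (red) mice at 3 and 10 mg/kg PFOS. Each point is 1 mouse, bars are group means of 5 mice and the open circle is Null 10 mg/kg replicate 1. In all 8 panels the WT 10 mg/kg group has the highest mean, and for Cdc20, Ube2c, Birc5 and Aurka the WT 3 mg/kg group has the lowest.

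A few changes ran the other way. Got1 changed by 1.31 (adjusted p = 0.0496), with 10.37 to 11.80 in WT at 10 mg/kg against 12.21 to 13.01 in the 15 other arrays, and Hal by 0.53 (adjusted p = 0.035), calls that were kept in 3 and 9 of the 20 analyses that left out 1 array. Myom2, a protein of the muscle sarcomere picked after its values were seen, differed by -2.51 (adjusted p = 1.7e-06) at 3 mg/kg and by -0.37 (adjusted p = 0.38) at 10 mg/kg, a change of 2.14 (adjusted p = 0.0068).

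Because the substrains differ, the genes next to Ppara were looked at. Of the 40 measured genes nearest to Ppara, 20 on each side, 3 were called (8.82% over all genes), all lower in Null. They were 5031439G07Rik (-1.12, adjusted p = 8.2e-05), Tspo, a cholesterol-binding protein of the outer mitochondrial membrane (-0.51, adjusted p = 0.0026), and Cdpf1 (-0.46, adjusted p = 0.037), and they are named after their values were seen. Without Null replicate 1, 5 of the 40 were called, and calls over all genes rose to 17.7%.

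The 12 hepatocyte markers averaged 13.29 to 13.47 in Null and 13.13 to 13.23 in WT, and 4 of them were higher in Null (33.3% called, against 8.82% over all genes). Of 13 periportal markers 5 were higher (38.5%) and of 16 pericentral markers 4 were higher (25%), with none lower in either list. In a whole tissue, fewer cells of a type and less RNA per cell cannot be told apart. Of 22 Kupffer cell and macrophage markers 1 was higher, Fcna, a ficolin (0.40, adjusted p = 0.020), with list means of 8.01 to 8.69 in Null and 7.72 to 8.45 in WT. Of 10 lymphocyte markers 1 was higher, Ighm, the heavy chain of IgM, at 8.25, 8.85, 8.83, 8.87 and 8.93 in Null and 7.79 to 8.13 in WT (0.83, adjusted p = 0.0032), with 2 of its 4 probe sets called. The share called among lymphocyte markers, 10%, was near the 8.82% over all genes, and that among Kupffer cell and macrophage markers, 4.55%, was below it. Of 2 red cell markers 1 was lower (50% called), Car2, carbonic anhydrase 2 (-0.72, adjusted p = 0.0015).

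Markers of the remaining cell types were not called. This held in limma, and in the methods' t-test after adjustment, for 21 endothelial, 19 stellate and fibroblast, 6 cholangiocyte, 9 neutrophil and monocyte and 7 adipocyte and pancreas markers, of which 3, 6, 0, 1 and 1 had an unadjusted p under 0.05. Without Null replicate 1, 2 endothelial and 3 stellate markers were higher in Null. The part of these cells in the gene differences was not tested.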

How the data were processed

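Liver RNA of 5 Null and 5 WT mice dosed with PFOS at 10 mg/kg was measured on Affymetrix arrays. The authors processed all 30 arrays with RMA, and the deposited values are log2 intensities. Of 45101 probe sets, 34958 had 1 gene name in the platform table, 932 several and 9211 none, and 64 control probe sets were left out. A probe set was kept when 5 or more of the 10 arrays exceeded 5.65, their median value (22726 probe sets, 11711 genes). Null was compared with WT in limma 3.58.1 (R 4.3.3), with Benjamini-Hochberg adjustment over kept probe sets and a threshold of 0.05, and a gene took its probe set with the smallest p, chosen again in each alternative fit. Differences between doses were an interaction over the 20 arrays at 3 and 10 mg/kg, and the calls at 3 mg/kg came from the same fit. The study used pairwise t-tests between doses within each strain at an unadjusted p of 0.0025. What is called the methods' t-test here is an equal-variance test of that kind applied to Null against WT on the same 10 arrays, at that threshold or after adjustment. Labels give biological replicates, so p-values measure the spread between mice. The number of arrays limits the precision.

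Genes were named if they were among the 10 largest differences in each direction without overlap, Ppara, up to 4 members with the smallest p of each of 56 lists, or called members of lists treated at length. Cpt1a, Acaa1b, Cyp2b10, Cyp3a11, Cyp7a1, Cyp8b1 and genes said to be picked or named after their values were seen fall outside this rule. Members and lists were chosen with earlier results of these data known. Of 50 genes each simulated at 1.25-, 1.5-, 2- and 4-fold, 14, 38, 50 and 50 were called, along with 5 unchanged genes. The simulated noise was independent between arrays, unlike the deviations of Null replicate 1 and WT replicate 2, so these rates may not hold for the real arrays. Promoters were matched by symbol to RefSeq windows of 300 bases. Alternatives changed the filter, scaling, probe set, model, arrays fitted and test. A gene among the largest differences is not reported here.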

Additional observations from a re-analysis of the deposited data

Results flagged for a closer look

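Among 132 genes named, 16 had a genotype difference that was called to differ between 10 and 3 mg/kg in the interaction test. The change in the Null minus WT difference (10 minus 3 mg/kg, log2) was -2.13 for Mogat1, -0.95 for Pex11a, -1.54 for Acot2, -1.52 for Cd36, -0.51 for Plin2, -1.70 for Pltp, -2.15 for Csf2rb and -1.85 for Amn. For cell division genes it was -1.86 for Cdc20, -2.11 for Ube2c, -1.40 for Ccnd1, -1.09 for Aurka and -1.76 for Birc5. It was positive for Got1 (1.31), Hal (0.53) and Myom2 (2.14).

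In 14 of 264 groups of 5 arrays, 1 array lay far from the other 4 by Dixon's criterion, which chance alone meets in about 1 in 20 groups. In 4 of them, Null replicate 1 lay apart, at log2 values of 11.78 for Hadha, 8.25 for Ighm, 10.66 for Abcb4 and 12.94 for Slc10a1. Null replicate 2 was at 6.27 for Rab30 and 10.61 for Psmb3, and Null replicate 4 at 6.87 for Csf2rb and 11.42 for Cyp4f14. WT replicate 1 was at 7.11 for Lipg, WT replicate 2 at 7.40 for Cyp7a1, WT replicate 3 at 12.42 for Cyp4a31, WT replicate 4 at 8.90 for Hsd3b2 and 11.78 for Cpt2, and WT replicate 5 at 7.01 for Pcp4l1.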

How the results depend on the processing

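The number of genes called (1033, with 429 higher and 604 lower in Null) moved with the arrays and the estimate of the spread. Array weights gave 2312 (1263 higher, 1049 lower), a fit of all 30 arrays 1985 (952 higher, 1033 lower) and a fit of the 20 arrays at 3 and 10 mg/kg 1708 (810 higher). Leaving out both Null replicate 1 and WT replicate 2, an alternative chosen after seeing the data, gave 1531 (792 higher) and 1468 called genes without overlap, against 888. Leaving out 1 array at a time gave 592 to 2073 calls, with 2073 without Null replicate 1, 622 without Null replicate 3, 637 without WT replicate 1 and also without WT replicate 2, and 592 without WT replicate 5. Those ranges were 198 to 1019 for genes higher, 372 to 1054 for genes lower, 576 to 1762 for called genes without overlap, 321 to 551 for at least 1.5-fold, 124 to 168 for at least 2-fold and 39 to 49 for PPARα targets lower. The share of calls that were higher was 41.5%, against 54.6% with array weights and 51.7% without the 2 arrays, and ranged from 33.4% (without WT replicate 5) to 49.2% (without Null replicate 1) when 1 array was left out. Shifting the arrays to the same median gave 810 calls (344 higher, 466 lower) and normalizing them again by quantiles 1153. The methods' t-test gave 878 genes at its unadjusted threshold and 931 after adjustment. Genes called next to Ppara numbered 6 with array weights, 5 in the fits of 30 and of 20 arrays, and 2 to 5 when 1 array was left out. Over all genes the calls rose too, to 2312 with array weights, 1985 and 1708 in those fits and 2073 without Null replicate 1. The 45 genes that differed between doses became 23 to 62, and under 30 without Null 3 mg/kg replicates 1, 2 and 5, Null 10 mg/kg replicate 3, WT 3 mg/kg replicates 1, 2, 3 and 5, and WT 10 mg/kg replicates 1 and 2, each left out alone. With the replicate number as a block, 1080 genes were called and 32 differed between doses. Deviations of same-numbered Null and WT arrays correlated at -0.09 to 0.37. The labels do not say that equal numbers pair mice, and these few correlations cannot decide it. Of 3280 values of named genes under alternatives, 2991 kept their side of the threshold, 278 lost a call (9 or more each for Acadm, Acsm1, Apoa5, Aurka, Cbr3, Cdk1, Cdpf1, Cenpa, Cyp17a1, Cyp39a1, Fasn, G0s2, Hnf4a, Mbl1, Pdk4, Pmvk and Stard4) and 11 gained one. No called difference changed direction, while Cyp2b10, which was not called, ranged from -0.08 to 0.25. The cause of these shifts was not tested. With 5 mice per group, calls near the threshold are the least certain.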
